A study of Mus musculus with 4 samples.

Results

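Fatty acid oxidation, ketogenesis and the peroxisome were described here through 39 genes. They were chosen by name for their place in these pathways, with earlier results of these data known. Of these members, 38 had a probe set that names them alone on the array, among 18193 such genes in all, and all 38 passed the filter on low values together with 16749 genes overall. Acsl1, a long-chain acyl-CoA synthetase, had no such probe set and is not analysed here. By role, 6 members act in uptake, binding and activation of fatty acids, 18 in mitochondrial oxidation, 12 in the peroxisome and 3 in or beside ketone body metabolism.

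RNA from whole liver of C57BL/6 mice was hybridised to 4 Affymetrix whole-genome mouse arrays, each for 1 mouse of 4 weeks of age. The 2 Cnot3KO mice carried the floxed Cnot3 allele and the Alb-Cre transgene, whose albumin promoter drives Cre recombinase in hepatocytes and their fetal precursors. By the paper's reporter most liver cells had recombined soon after birth, and it takes the rest to be non-hepatic. Which liver cells kept Cnot3 was not measured here. The 2 Control mice are wild type by their labels, whereas the study's methods allow controls with the genotypes (flox/+), (flox/flox), Alb-cre with (+/+) or Alb-cre with (flox/+), and which of these were used is not given in the sources used here. The labels name no treatment for either group. Cnot3 belongs to the Ccr4-Not complex, the main enzyme complex that trims poly(A) tails. The comparison asks how transcript levels differ in a liver with Cnot3 deleted through Alb-Cre. Values are log2 of the intensities after Robust Multi-array Average (RMA), n = 2 arrays per group throughout. A difference is Cnot3KO minus Control with its standard error (SE), and a member was called higher or lower at an adjusted p under 0.05 in limma with Benjamini-Hochberg adjustment over all probe sets kept. A level depends on the probes of its probe set, so levels were not compared between genes.

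Fatty acids enter hepatocytes through membrane and binding proteins and are activated to acyl-CoA. Long chains are taken into mitochondria by the carnitine shuttle. In mitochondria, fatty acids are shortened in repeated rounds of dehydrogenation, hydration, dehydrogenation and thiolysis, with electrons passed on by the electron transfer flavoprotein. Very long, branched and dicarboxylic chains are first shortened in peroxisomes. In the fasted liver much of the acetyl-CoA becomes ketone bodies, which the liver exports but cannot use. The nuclear receptor Ppara, paired with Rxra, is the best known activator of these genes.

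The better measured of the Cnot3 probe sets had levels of 5.99 and 6.04 in Control against 5.15 and 5.30 in Cnot3KO, lower by label on every array (difference -0.79 ± 0.16, adjusted p = 0.0372 in limma). Which exons it matches is not known here, its call was lost whenever any 1 array was left out, and the other probe set did not pass (-0.40, adjusted p = 0.218). Array medians lay between 3.09 and 3.14. Of 11 hepatocyte markers 1 was called lower, with a median difference of -0.01, and Alb lay at 13.73 to 13.84 on all 4 arrays, so the labelled tissue carried its defining marker. Markers of some other liver cells moved with genotype, where 12.2% of all genes tested rose and 4.64% fell. Called higher were 6 of 12 macrophage, 7 of 10 stellate cell and 5 of 6 cholangiocyte markers. The stellate cell markers Lrat, Reln and Des were not called (-0.19, 0.22 and 0.07). Called lower were 3 of 6 erythroid markers (Alas2, Car1 and Klf1), with a median difference of -0.86 over the 6. Of 8 endothelial and 7 lymphoid markers none was called. The sum of the linear macrophage marker intensities was 2845 and 2686 in Control against 5143 and 5636 in Cnot3KO, that of stellate cell markers 2270 and 1842 against 5972 and 4473, that of cholangiocyte markers 56.7 and 48.6 against 998 and 753, and that of erythroid markers 723 and 953 against 502 and 1025. The erythroid sum includes Tfrc, which was not called and read 8.22 and 9.01 in Control against 8.76 and 9.83 in Cnot3KO. The part of these cells in the differences below was not tested. In whole liver fewer cells of a type and less RNA per cell cannot be told apart. Xist, expressed from the inactive X chromosome, read 1.99 to 2.33 and the Y-linked Eif2s3y 7.34 to 7.90, without a call for either.

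Most members had lower values in the Cnot3KO livers, although few differences were large enough to be called with 2 arrays per group. Of the 38 members 6 fell (15.8%), namely Acadsb, Abcd3, Pex11a, Phyh, Slc27a2 and Acaa1b, where 4.64% of all genes tested fell. One member rose, Cd36 (2.63%, where 12.2% of all genes rose and 16.8% were called either way), and 31 were not called. The difference was negative in 33 members and positive in 5, against a negative difference in 49.8% of all genes. The median difference was -0.61 over the members and 0.00 over all genes tested.

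Array by array, both Cnot3KO values lay below both Control values in 25 members (65.8%) and in 30.3% of all genes, and above them in 3 members (Cd36, Cpt2 and Etfb) and in 34.8% of all genes. The groups overlapped in 10 members. At an unadjusted p under 0.05, 17 members were lower and 3 higher, against 12.4% and 22.9% of all genes. Acadsb, Abcd3, Pex11a, Phyh and Hacl1 were more than 2-fold lower and Cd36 more than 2-fold higher, against 3.96% and 11.6% of all genes. The share of genes called lower depended on the level of the genes the members were set against. Among the 980 genes with a mean level of at least 8.96, the 25th percentile of the members, 12.4% were called lower and 8.78% higher, and of the 28 members at or above that level 4 were called lower (14.3%) and none higher. At that level the share called lower was thus near the background. The Cnot3KO arrays were both lower in 20 of these 28 members (71.4%) against 37.6% of the 980 genes, and the median difference was -0.66 against -0.03. This level was chosen after the data were seen.

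**Figure D1:**
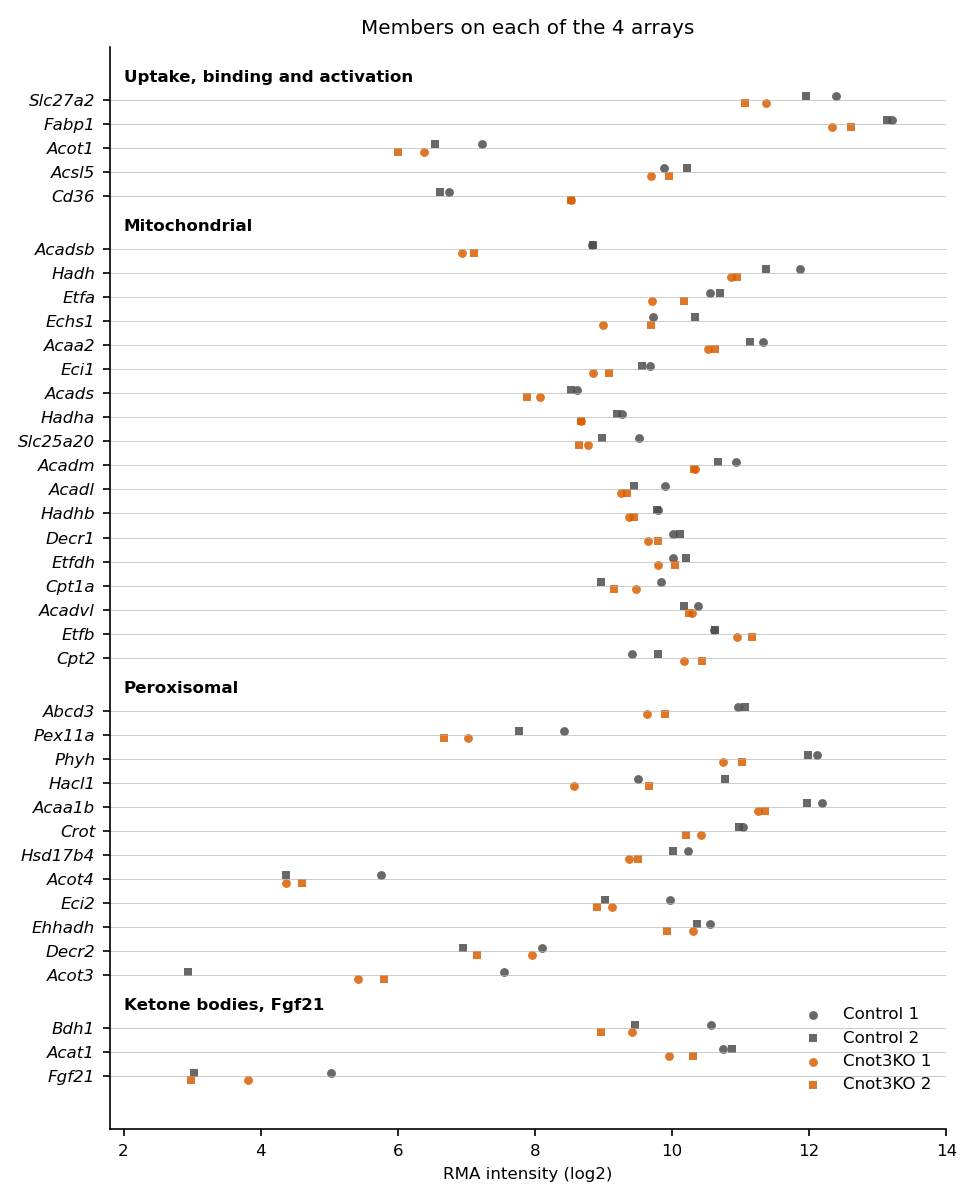
Level of each of the 38 measured members on each array (x axis, log2 RMA intensity), grouped by role and ordered within a role by the difference between the groups. Gray marks are Control and orange marks Cnot3KO, circles replicate 1 and squares replicate 2; orange lies left of gray without overlap in 25 members and right of it in 3.

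Genes of uptake and activation held the largest rise among the members and 1 fall. Cd36, the fatty acid translocase that takes up long-chain fatty acids and is also a scavenger receptor of macrophages and endothelium, had levels of 6.75 and 6.62 in Control against 8.52 and 8.52 in Cnot3KO. Both Cnot3KO livers were far above both Control livers, and the rise was 3.56-fold (1.83 ± 0.16, adjusted p = 0.00596 in limma). Both other Cd36 probe sets were called higher too, by 2.81 and 2.02. The 12 macrophage markers were all higher on both Cnot3KO arrays than on both Control arrays, with a median difference of 1.09, while 8 endothelial markers had a median difference of -0.14; whether these cells contributed to the Cd36 values was not tested.

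Slc27a2, which transports fatty acids and activates very long chains, showed the opposite order. It read 12.39 and 11.96 in Control against 11.37 and 11.06 in Cnot3KO. All 4 values were high and the groups did not overlap, with a fall of 1.95-fold (-0.97 ± 0.22, adjusted p = 0.0490 in limma). Of the 7 members called, it was the closest to the threshold, and leaving out any 1 array ended it.

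The remaining genes of this role were not called. Fabp1, the abundant fatty acid binding protein of the hepatocyte cytosol, read 13.21 and 13.14 in Control against 12.33 and 12.61 in Cnot3KO, without overlap and close to the threshold (-0.71 ± 0.18, adjusted p = 0.0611). Acot1, a cytosolic thioesterase that releases fatty acids from acyl-CoA, differed by -0.70 ± 0.29 (adjusted p = 0.172), and its signal may include that of near-identical neighbours of its family. Acsl5, an acyl-CoA synthetase, overlapped between the groups (-0.23, 95% interval -0.74 to 0.28).

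Among the 18 mitochondrial members 1 fell, a share near the 4.64% of all genes tested that fell. The others held small differences, mostly downward. Acadsb, the dehydrogenase of short branched acyl-CoA that also serves isoleucine breakdown, had levels of 8.83 and 8.84 in Control against 6.93 and 7.11 in Cnot3KO. The values within each group were close together and the groups lay far apart, with a fall of 3.52-fold (-1.82 ± 0.17, adjusted p = 0.00651 in limma), the largest of any member. It was measured by 1 probe set, of a type whose probes can also match other transcripts. In this role 16 of 18 differences were negative, against 49.8% of all genes, and the median was -0.51. The Cnot3KO arrays were both lower in 13, both higher in 2 and overlapping in 3. Of all genes 30.3% lay lower and 34.8% higher. At an unadjusted p under 0.05, 8 were lower and 2 higher, against 12.4% and 22.9% of all genes.

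None of the 3 genes of the carnitine shuttle was called in limma, and differences between them were not tested. Cpt1a, the outer membrane transferase that controls entry, read 9.84 and 8.97 in Control against 9.48 and 9.15 in Cnot3KO. The Control livers bracketed the Cnot3KO livers, and the interval of the difference ran from -0.91 to 0.72, wide enough to hold a change in either direction; it turned positive without Control replicate 1 (0.34) or Cnot3KO replicate 2 (0.08). Slc25a20, the carrier of acylcarnitine across the inner membrane, differed by -0.54 ± 0.23 (adjusted p = 0.178). Cpt2, which returns the chain to CoA in the matrix, read 9.42 and 9.79 in Control against 10.17 and 10.43 in Cnot3KO, with both Cnot3KO livers above both Control livers but no call (0.70 ± 0.21, adjusted p = 0.0895).

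The acyl-CoA dehydrogenases other than Acadsb, which start each round and differ in the chain lengths they accept, were not called. Their differences were -0.01 for Acadvl (very long chain, 95% interval -0.43 to 0.41), -0.37 for Acadl (long), -0.47 for Acadm (medium) and -0.59 for Acads (short, adjusted p = 0.0774). The groups overlapped for Acadvl and were apart for the other 3. The sign of the Acadvl difference turned positive, at 0.03, with quantile normalization again or either centring.

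On their main probe sets the enzymes that complete the round were lower on both Cnot3KO arrays throughout, without a call. Hadh, the hydroxyacyl-CoA dehydrogenase of shorter chains, read 11.87 and 11.37 in Control against 10.86 and 10.94 in Cnot3KO (-0.72 ± 0.22, adjusted p = 0.0938). Acaa2, the thiolase of the last step, differed by -0.66 ± 0.17 (adjusted p = 0.0633) and Echs1, the hydratase of shorter chains, by -0.68 ± 0.32 (adjusted p = 0.215). Hadha and Hadhb, the subunits of the trifunctional protein for long chains, differed by -0.56 and -0.37. Of the other Hadhb probe sets one gave -0.86 (adjusted p = 0.0592 in limma) and one, near the array medians, overlapped (-0.39). Of the enzymes that handle double bonds, the isomerase Eci1 differed by -0.66 ± 0.18 (adjusted p = 0.0690) and the reductase Decr1 by -0.34 ± 0.17 (adjusted p = 0.234).

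The electron transfer flavoprotein is made of the products of Etfa and Etfb, and these had opposite orders. Etfa read 10.56 and 10.70 in Control against 9.71 and 10.17 in Cnot3KO. Etfb read 10.61 and 10.62 in Control against 10.95 and 11.17 in Cnot3KO. The Cnot3KO livers were thus both below for the first and both above for the second, and neither passed (-0.69 ± 0.21, adjusted p = 0.0981, and 0.45 ± 0.17, adjusted p = 0.147). Etfdh, which hands the electrons on to ubiquinone, overlapped between the groups (-0.19 ± 0.18).

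**Figure D2:**
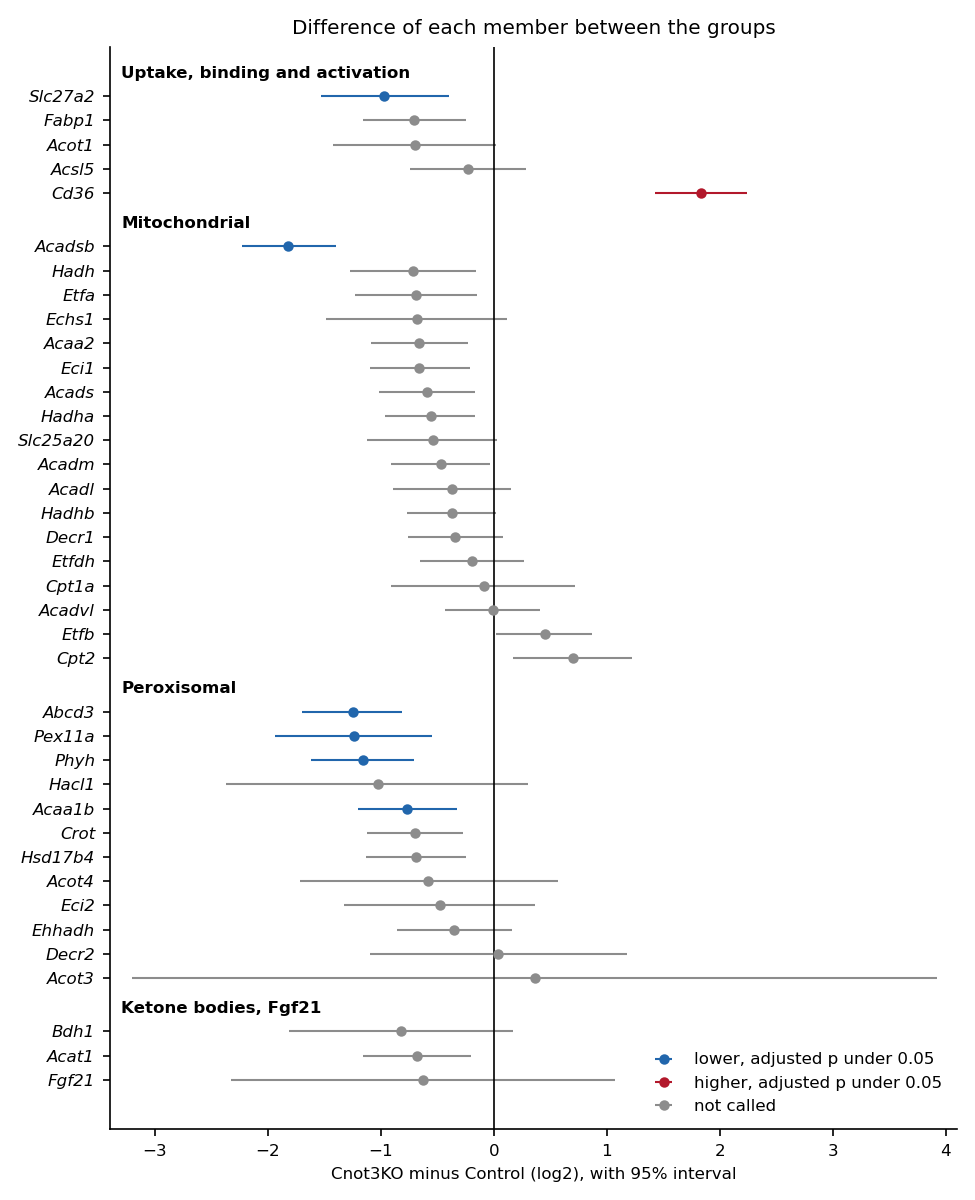
Difference between the groups for each of the 38 measured members (x axis, Cnot3KO minus Control, log2) with its 95% interval from limma, grouped by role. Blue points are the 6 members called lower, the red point is Cd36, the 1 called higher, and gray points were not called; the widest interval is that of Acot3, from -3.20 to 3.92.

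Peroxisomal genes held 4 of the 6 falls. Of the 12 members of this role 4 were called lower, against 4.64% of all genes. Among genes with a mean level of at least 8.96, which not all 12 reached, 12.4% were called lower. In 10 the difference was negative, against 49.8% of all genes, and the median was -0.69. The Cnot3KO arrays were both lower in 7, against 30.3% of all genes, and overlapped Control in 5. The sum of the linear intensities of these 12 members was 18484 and 17198 in Control against 9629 and 10144 in Cnot3KO. For the mitochondrial members the sums were 22023 and 20133 against 15707 and 17311. Both sums were lower on each Cnot3KO array than on either Control array, and the difference between the roles was not tested. Genes of high signal weigh most in such a sum. Acaa1b and Phyh, both peroxisomal and called lower, had linear means of 4336 and 4240 in Control against 2540 and 1899 in Cnot3KO.

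Abcd3, the transporter of the peroxisomal membrane that brings in long and branched acyl-CoA, had levels of 10.96 and 11.06 in Control against 9.63 and 9.89 in Cnot3KO. Both Cnot3KO livers were well below both Control livers, a fall of 2.38-fold (-1.25 ± 0.18, adjusted p = 0.0151 in limma). Pex11a, a membrane protein that promotes peroxisome division, read 8.43 and 7.77 in Control against 7.03 and 6.68 in Cnot3KO. Its Control livers differed more from each other than its Cnot3KO livers did, yet the groups did not overlap, and the fall was 2.37-fold (-1.24 ± 0.28, adjusted p = 0.0439).

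Phyh and Hacl1 act in turn in alpha-oxidation, which removes the first carbon of phytanic acid and other branched chains. Phyh read 12.11 and 11.98 in Control against 10.75 and 11.02 in Cnot3KO. The groups were apart by far more than the spread within them, a fall of 2.24-fold (-1.16 ± 0.18, adjusted p = 0.0185 in limma). Hacl1 read 9.51 and 10.77 in Control against 8.57 and 9.66 in Cnot3KO. Replicate 2 was higher than replicate 1 in both groups, so the groups overlapped and the difference of similar size was not called (-1.03 ± 0.53, adjusted p = 0.252).

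The members of peroxisomal beta-oxidation named in this paragraph read lower on both Cnot3KO arrays than on both Control arrays, 1 of them with a call. Eci2 and Decr2, given below, overlapped. Among genes that are not members, Acox2 read 9.25 and 9.79 in Control against 10.47 and 10.42 in Cnot3KO (0.93 ± 0.23, adjusted p = 0.0563 in limma). Acox3 overlapped and Acaa1a was lower on both Cnot3KO arrays, without a call for either. Acaa1b, a thiolase of the last step, read 12.19 and 11.97 in Control against 11.26 and 11.36 in Cnot3KO. The groups did not overlap and the fall was 1.70-fold (-0.77 ± 0.17, adjusted p = 0.0454 in limma), although the call ended when any 1 array was left out, and its probes may share signal with its close relative Acaa1a. Hsd17b4, the bifunctional enzyme for branched chains and bile acid precursors, differed by -0.69 ± 0.17 (adjusted p = 0.0611) and Ehhadh, the bifunctional enzyme for straight and dicarboxylic chains, by -0.35 ± 0.20 (adjusted p = 0.302). Crot, which makes medium-chain acylcarnitines for export to mitochondria, read 11.03 and 10.97 in Control against 10.42 and 10.20 in Cnot3KO and narrowly missed the threshold (-0.70 ± 0.17, adjusted p = 0.0558).

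The remaining peroxisomal members gave no call and overlapped between the groups on their main probe sets. A second Acot4 probe set read 4.24 and 2.62 in Control against 2.24 and 2.09 in Cnot3KO. It had neither overlap nor a call (-1.27 ± 0.52, adjusted p = 0.171 in limma). The isomerase Eci2 differed by -0.48 ± 0.34 and the reductase Decr2 by 0.04 ± 0.45, a sign that turned with quantile normalization again (-0.05) and when Control replicate 2 (-0.53) or Cnot3KO replicate 1 (-0.36) was left out. The thioesterase Acot4 differed by -0.58 ± 0.45, which became 0.11 without Control replicate 1 and, with a call, -1.27 without Control replicate 2 (adjusted p = 0.0473). Acot3, another thioesterase of that family, had levels of 7.55 and 2.94 in Control against 5.42 and 5.80 in Cnot3KO. The Control livers lay on either side of the Cnot3KO livers, and the difference of 0.36 ± 1.42 became 2.67 without Control replicate 1 (adjusted p = 0.0352) and -1.94 without Control replicate 2 (adjusted p = 0.0359), so it was called in opposite directions and its direction is not settled.

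The 3 members of ketone body metabolism had negative differences and no call on their main probe sets in limma. At an unadjusted p under 0.05, 1 of them was lower, against 12.4% of all genes. Acat1, a mitochondrial thiolase that joins acetyl-CoA units to acetoacetyl-CoA, read 10.74 and 10.88 in Control against 9.96 and 10.30 in Cnot3KO, without overlap (-0.68 ± 0.19, adjusted p = 0.0768). Bdh1, which reduces acetoacetate to beta-hydroxybutyrate, read 10.57 and 9.46 in Control against 9.41 and 8.97 in Cnot3KO. On this main probe set the Control livers differed by more than the groups did, and Control replicate 2 lay only just above Cnot3KO replicate 1 (-0.82 ± 0.39, adjusted p = 0.225). The second Bdh1 probe set read 7.49 and 6.71 in Control against 5.98 and 5.52 in Cnot3KO. There the groups were further apart, still without a call (-1.35 ± 0.32, adjusted p = 0.0505 in limma). Fgf21, a liver hormone of the fasted state, read 5.03 and 3.03 in Control against 3.81 and 2.98 in Cnot3KO. Control replicate 1 stood above the other 3 livers, and the groups overlapped (-0.63 ± 0.68, adjusted p = 0.561), with a difference of 0.36 when Control replicate 1 was left out. Oxct1, which lets tissues outside the liver use ketone bodies, is not a member and had levels of 4.45 and 4.20 in Control against 7.01 and 7.68 in Cnot3KO, with a rise of 8.15-fold (3.03 ± 0.27, adjusted p = 0.00605 in limma).

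Several probe sets of a gene did not always give the same call. The members had 62 probe sets in all, of which 10 were called lower and 3 higher, the 3 being those of Cd36, and 18 members had more than 1. The probe set with the highest mean stood for each gene. In Abcd3, Acat1, Decr1, Hadh and Pex11a the calls differed between probe sets.

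In 3 of these genes a probe set of lower signal was called where the main one was not. A second probe set of Decr1, the dienoyl-CoA reductase of mitochondria, read 7.64 and 7.34 in Control against 5.93 and 5.95 in Cnot3KO, a difference of -1.55 ± 0.18 (adjusted p = 0.00978) where the main one gave -0.34. Of the other Acat1 probe sets, one read 8.14 and 8.08 in Control against 6.41 and 6.42 in Cnot3KO (-1.70, adjusted p = 0.00684) and one gave -0.86 (adjusted p = 0.0339). A Hadh probe set with levels of 4.01 and 3.57 in Control against 2.66 and 2.88 in Cnot3KO, near the array medians, was called lower (-1.02, adjusted p = 0.0393), and the third Hadh probe set gave -0.62.

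In the other 2 genes the main probe set was called and another was not. The second Pex11a probe set gave almost the same difference, -1.33 (adjusted p = 0.0566). The second Abcd3 probe set read 1.50 to 2.33 on all arrays, below the array medians (-0.41, adjusted p = 0.316). All probe sets of these 5 genes had negative differences. With all probe sets of a gene averaged instead, 12 members were lower, where 5.29% of all genes were. Fabp1, Hadh, Eci1, Decr1, Hsd17b4 and Acat1 passed in addition to the 6.

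**Figure D3:**
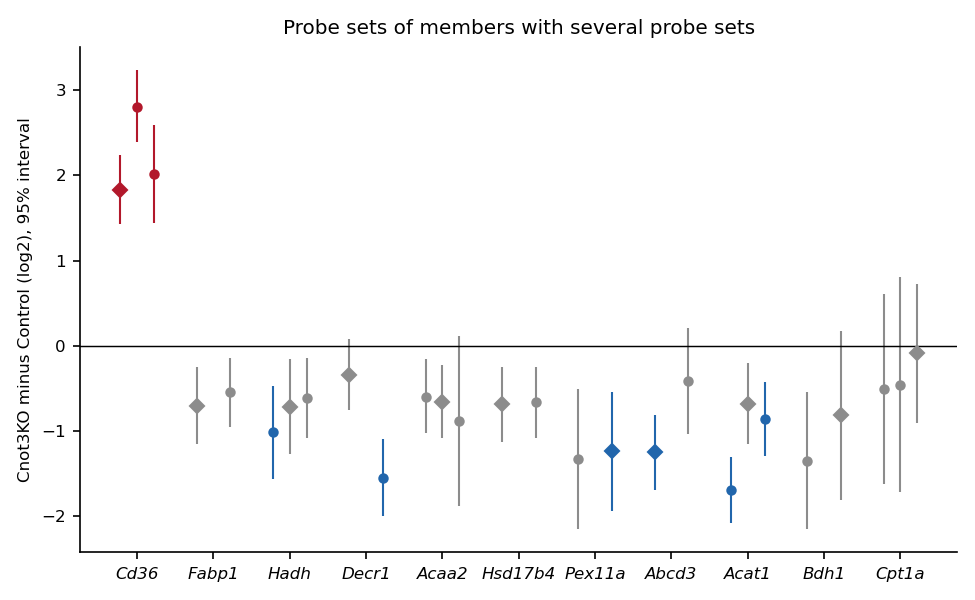
Difference between the groups (y axis, Cnot3KO minus Control, log2) with its 95% interval for each probe set of 11 members with several probe sets (x axis). Diamonds mark the probe set that represents the gene and circles the others, red is called higher, blue called lower and gray not called; Decr1 and Acat1 have circles called lower beside gray diamonds.

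The members also differed within groups. The 2 Control livers differed by more than 1 on the log2 scale in 6 members, Acot3, Fgf21, Acot4, Hacl1, Decr2 and Bdh1, where 3.31% of all genes tested did so. The Cnot3KO livers differed by that much in Hacl1 alone, against 2.32% of all genes. Control replicate 1 was higher than Control replicate 2 in 27 of 38 members, and Cnot3KO replicate 1 higher than Cnot3KO replicate 2 in 14. The difference between the Control livers exceeded that between the groups in 11 members, and that between the Cnot3KO livers did so in 9. Over the members the median absolute difference was 0.22 between the Control livers, 0.25 between the Cnot3KO livers and 0.66 between the groups, against 0.24, 0.19 and 0.36 over all genes tested. Without Control replicate 1 the median difference of the members was -0.40. Of the 6 members called lower only Acadsb then kept its call, and fewer of all genes tested were called as well.

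**Figure D4:**
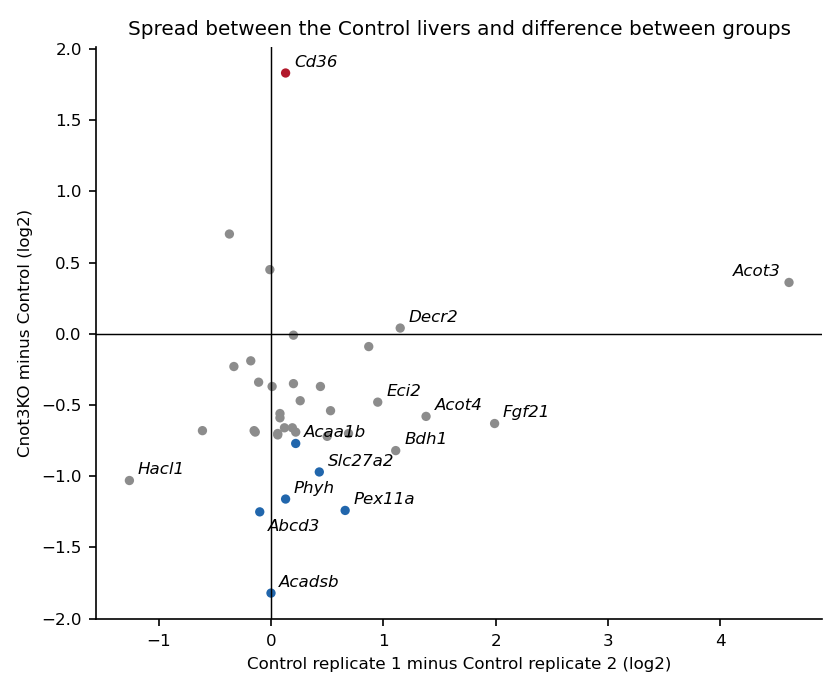
Difference between the 2 Control livers (x axis, replicate 1 minus replicate 2, log2) against the difference between the groups (y axis, Cnot3KO minus Control, log2), 1 point per member. Blue and red points are members called lower and higher and gray points were not called. The called members lie from -0.10 to 0.66 on the x axis, and Acot3 lies farthest out at 4.61.

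The regulators of these genes gave 1 call. Of 22 regulators of fatty acid oxidation tested none rose and 1 fell, with a median of -0.19. Of all genes tested 12.2% rose and 4.64% fell, so the share of regulators that fell was near the background. At an unadjusted p under 0.05, 2 were higher and 4 lower, against 22.9% and 12.4% of all genes. The methods' t-test after adjustment called none of them, nor any other of all genes tested. The gene that fell was Rxra, the partner of Ppara on DNA, with levels of 8.80 and 8.56 in Control against 7.66 and 7.58 in Cnot3KO (-1.07 ± 0.17, adjusted p = 0.0206 in limma). Ppara itself read 9.19 and 7.90 in Control against 7.00 and 6.61 in Cnot3KO. All Cnot3KO values were lower, but the Control livers differed by 1.29 from each other and the difference was not called (-1.74 ± 0.44, adjusted p = 0.0596). Hnf4a, a central transcription factor of hepatocytes, differed by -0.25 (adjusted p = 0.372).

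Ppara with Rxra binds a direct repeat of AGGTCA with 1 base between the copies, so the promoters of the members, from 250 bases before to 50 after the annotated start, were searched for it on both strands. Promoters of RefSeq genes (GRCm38.p6) were matched for 35 of the 39 members; Decr1, Acaa2, Hsd17b4 and Acat1 had none in the table. The exact repeat was in 0 of 35 members and in 0.0481% of all 27025 genes. With any base at the fourth place of each copy (AGGNCA), which includes the exact repeat, it was in 1 member, Fabp1 (2.86%), and in 0.451% of all genes. With up to 2 mismatches in the 12 letters, a search added after the data were seen, it was in 6 members (17.1%) and in 4.40% of all genes. These 6 stretches are shown because they are the closest matches among the members, with the match in capitals and 8 bases on each side, on the strand of the gene.
Cd36: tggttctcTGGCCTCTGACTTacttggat
Fabp1: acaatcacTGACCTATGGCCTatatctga
Echs1: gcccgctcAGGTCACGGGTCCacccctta
Etfa: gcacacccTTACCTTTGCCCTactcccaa
Slc25a20: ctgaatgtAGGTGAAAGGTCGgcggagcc
Acot4: ccgaagcaTGACCTTTGGCCGgtctgtgc
They lie at chr5:17835939-17835967 for Cd36, chr6:71199804-71199832 for Fabp1, chr7:140116484-140116512 for Echs1, chr9:55512300-55512328 for Etfa, chr9:108662134-108662162 for Slc25a20 and chr12:84038358-84038386 for Acot4 (Cd36, Echs1 and Etfa on the minus strand, the others on the plus strand). The match began 63 bases before the start in Cd36, 67 in Fabp1, 83 in Echs1, 77 in Etfa and 13 in Acot4, and lay after the start in Slc25a20. In Cd36, Fabp1, Etfa and Acot4 the repeat is on the strand opposite to the gene and reads as its complement.

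The matches are set beside the calls as a description only, since the 6 members called lower are too few for their share to be read. A match with up to 2 mismatches was in 0 of the 6 members called lower, in Cd36, the member called higher, and in 5 of 27 members not called that had a promoter in the table. A match in these letters is a description and not a binding site, and its absence says only that the letters are not in this window. The member promoters had a median GC content of 58.7%, against 52.7% for all promoters.

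Other lists of related genes show how the members stood in their pathways. Over all genes tested 4.64% fell and 12.2% rose, the shares to set beside the counts of these lists. At an unadjusted p under 0.05 the shares were 12.4% lower and 22.9% higher. Of 45 other genes of fatty acid and ketone metabolism tested 6 fell and 5 rose, with a median of -0.15, so this list had calls in both directions. Besides Oxct1, the largest changes called were the rise of Cpt1c, the carnitine palmitoyltransferase of neurons (2.24, adjusted p = 0.0106), from levels of 2.62 and 2.25 in Control, below the array medians, and the fall of Slc27a5, which activates bile acids and fatty acids (-1.44 ± 0.18, adjusted p = 0.0120). Of 16 peroxins and matrix proteins 3 fell and 1 rose, with a median of -0.01. Those that fell were Pex7, the import receptor that carries Phyh and thiolase into the peroxisome (-1.23 ± 0.22, adjusted p = 0.0260), catalase (Cat, -0.93 ± 0.18, adjusted p = 0.0300) and Pex6 (-0.71 ± 0.16, adjusted p = 0.0468), which recycles import receptors. Pex16, a factor of peroxisomal membrane assembly, rose (1.14 ± 0.16, adjusted p = 0.0155).

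Of 17 other target genes of Ppara 7 fell and 2 rose, with a median of -0.45. The monoglyceride lipase gene Mgll fell by -2.85 ± 0.22 (adjusted p = 0.00486) and the fatty acid omega-hydroxylase gene Cyp4a12a, which in mice is also higher in males, by -2.60 ± 0.18 (adjusted p = 0.00422). Pdk4, the kinase that restrains pyruvate dehydrogenase when fat is burned, rose by 3.13 ± 0.32 (adjusted p = 0.00805). Of 23 mitochondrial housekeeping genes of the citric acid cycle and respiratory chain none fell and 2 rose in limma, Fh1 (0.96 ± 0.20) and Mdh2 (0.84 ± 0.19), and at an unadjusted p under 0.05, 1 was lower and 2 higher. Their median was 0.17 and 18 of 23 differences were positive, against 2 of 18 among the mitochondrial members.

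**Figure D5:**
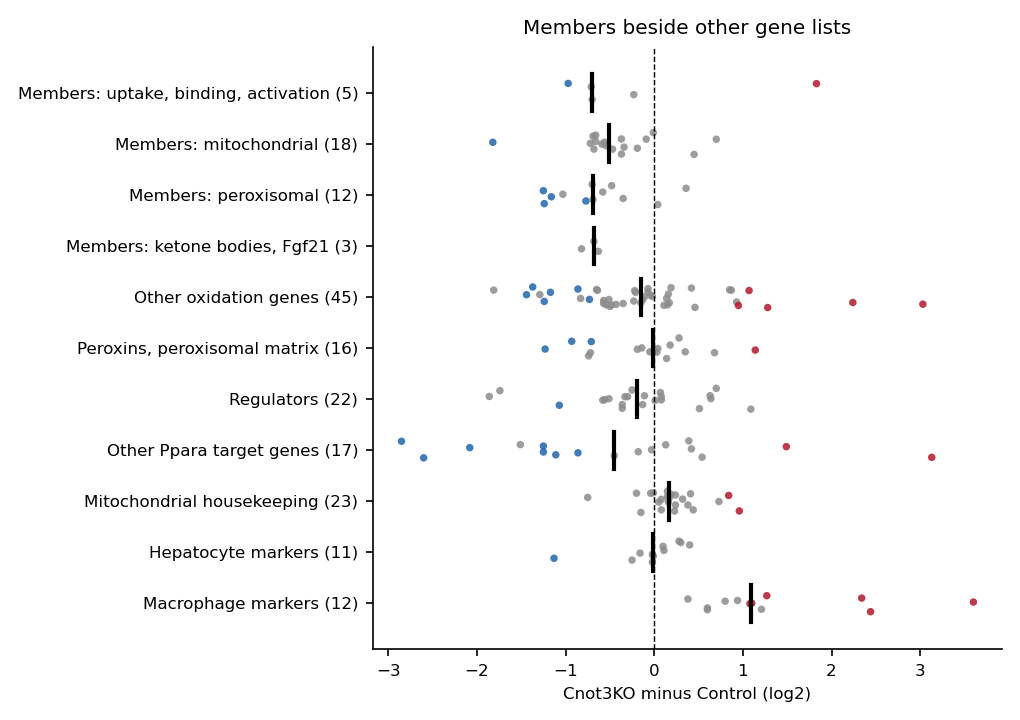
Difference between the groups (x axis, Cnot3KO minus Control, log2) of each tested gene of the members by role and of other gene lists (y axis, number tested in parentheses). Each point is 1 gene, blue where called lower, red where called higher and gray where not called, and black bars are medians, from -0.70 for uptake, binding and activation to 1.09 for macrophage markers.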

How the data were processed

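Total RNA of 4 livers (2 Control, 2 Cnot3KO, 4 weeks) was hybridised to 1 array each. The authors deposited linear intensity values summarised with RMA, which corrects background, normalizes between arrays and combines probes; its version, and whether other arrays were normalized together with these, are not given in the sources used here. Values were turned to log2. Probe sets above the 20th percentile of an array on at least 1 array were kept (38405 of 45037, 85.3%). Of all probe sets, 34945 named 1 gene in the platform annotation, 932 several and 9160 none; 34741 matched a RefSeq table (GRCm38.p6) by Entrez identifier with 0 changes of symbol. The probe set with the highest mean stood for a gene. Groups were compared 2-sided with lmFit and eBayes (limma 3.58.1, R 4.3.3; 5.40 degrees of freedom, 3.40 from the prior), with Benjamini-Hochberg adjustment over all kept probe sets; the code was tested on simulated data. Figures and counts used Python 3.11.15. The number of arrays limits the precision (median SE 0.192). Replicate numbers were not taken as pairs, since nothing says what they mark. Values on each array are given for members called, for the 2 largest differences of each role and for members whose probe sets differ in call; other members and genes, such as Cpt1a, Etfa and Etfb, were named with their values in view. The members and lists were chosen with earlier results of these data known. Alternatives are given below.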

Additional observations from a re-analysis of the deposited data

How the results depend on the processing

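Counts rested on few arrays. Leaving out each array in turn left 1 array in a group, and each time fewer of all genes tested were called lower or higher. The median difference of the members ran from -0.67 to -0.40, and the Cnot3 difference from -0.87 to -0.71 without a call. Cd36 and Acadsb kept their call each time, Abcd3 and Phyh only without Cnot3KO replicate 2, Pex11a only without Control replicate 2, and Slc27a2 and Acaa1b never. Acot3 was called higher without Control replicate 1 (2.67) and lower without Control replicate 2 (-1.94), where Acot4 was called lower too (-1.27). Of the 6 members lower in the main fit, only Acadsb and Pex11a kept their call without Control replicate 2. Without Control replicate 1 the differences of Fgf21 (0.36), Cpt1a (0.34), Acot4 (0.11) and Acadvl (0.09) were positive. Across the same omissions the calls in the other lists changed too, and no mitochondrial housekeeping gene was called higher.

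The replicate number, which these samples share only as a number, was also used as a block in limma (2 pairs, correlation of deviations 0.232). Then 6 members were lower and 1 higher, against 4.27% and 11.0% of all genes tested. Hacl1 gained a call (-1.03, adjusted p = 0.0352), Acaa1b lost its own (adjusted p = 0.0658) and so did Cnot3 (-0.79, adjusted p = 0.0517). Under the block 3 other oxidation genes, 1 other Ppara target and 1 mitochondrial housekeeping gene were higher and 3 regulators lower.

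Slc27a2 lost its call with no filter, quantile normalization again or centring on array medians (adjusted p = 0.0529, 0.0591 and 0.0559), and Acaa1b with the last 2 (0.0535 and 0.0530). These scalings moved the median of all kept probe sets from -0.0831 to -0.0599 and -0.0446. Regulators lower were 2 with quantile normalization, with a filter at the 50th percentile of means, without _x_at or _s_at probe sets, or with probe sets of a gene averaged, and 3 with centring on ribosomal protein genes. With probe sets averaged 12 members were lower and 0 peroxins higher. A prior that follows intensity added Fabp1, Acaa2 and Crot and ended the Cnot3 call (-0.79, adjusted p = 0.0551); a robust prior changed no member's call. The methods' t-test, equal variance and 2-sided, found 12 members lower at an unadjusted p under 0.05. It also found 2 peroxins, 1 other Ppara target and 5 mitochondrial housekeeping genes higher and 4 other Ppara targets lower. Of all genes tested 9.40% were lower and 14.1% higher by this test. After adjustment it called 0 members lower, 0 higher and 0 genes of these lists either way (Cnot3 at -0.79, adjusted p = 0.184). It also called 0% of all genes tested lower and 0% higher, so this outcome is not particular to the members or lists. Acadsb and Acot3 have no value without _x_at and _s_at probe sets. Promoter matches went from 1 to 6 members with up to 2 mismatches. Targeting signals of the proteins were planned and not run. Where no cause is named, the cause was not tested.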
